A study of Mus musculus with 6 samples.

Results

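RNA levels of the major histocompatibility complex (MHC) genes and of the genes that load peptides onto MHC molecules were compared between lungs of Zpbp2 KO and WT mice. Genes were taken by symbol: every gene whose symbol starts with H2-, the mouse MHC, together with 15 named genes of antigen presentation, provided that at least 10 counts were found in 3 or more libraries. Of 59 matching genes in a table of 47069 genes, 42 met this minimum and 17 did not. All 42 were tested. They comprise 19 class I heavy chain genes (with the class I-like genes Cd1d1 and Mr1), 10 class I processing genes, 12 class II genes and H2-Ke6, which lies in the region but encodes no MHC protein. By position, 32 of the 42 are on chromosome 17 and 10 are elsewhere (GENCODE M21, GRCm38). Just inside the minimum was H2-Q1, and just outside it was the pseudogene H2-M6-ps with 3 to 10 counts a library. Among the other excluded genes no library had more than 6 counts, and these included the H2-M10 group, H2-T3, H2-Q3 and H2-Ea-ps, the E alpha chain gene that C57BL/6 mice do not express.

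WT mice were C57BL/6J. KO mice, of the strain B6.129S7-Zpbp2tmZuk/Mmjax, carried a germline deletion of the 5′ end of Zpbp2 on C57BL/6J, so that every cell of the lung carries it, and the WT mice were born in the same colony. All were adults, lungs were taken at ZT10 (10 h after lights on), neither group was treated, and there was 1 mRNA library a mouse for WT4, WT5, WT6, KO4, KO5 and KO6. The study used both sexes and the labels give no sex or exact age. Whole lung was sequenced, so fewer cells of a type and less RNA per cell cannot be told apart.

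Class I molecules are made by nearly all nucleated cells: a heavy chain pairs with beta-2-microglobulin and shows peptides cut by the proteasome in the cytosol to CD8 T cells. Class II molecules are an alpha and a beta chain, made mainly by B cells, dendritic cells and macrophages, and in the lung also by type 2 alveolar cells, and they show peptides from the lysosome to CD4 T cells. Both gene sets are read through a shared promoter element, the SXY module, whose X box binds RFX and CREB proteins and whose Y box binds NF-Y. The coactivator CIITA acts there for class II genes, and NLRC5 for class I genes.

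Promoters of members are shown first, since this element is what class I and class II genes have in common. RefSeq windows (GRCm38.p6) were found for 30 of the 42 members, and the 250 bases before the annotated start were searched on both strands. The letters searched were ATTGG for the Y box, and GNAAC or TGATGAC followed by ATTGG with starts 15 to 40 bases apart for the X box; they were chosen after these windows had been read. In the lines below the capitals mark the X and Y box letters, 5′ to 3′ on the gene's strand. Class II members that hold GNAAC then ATTGG were these 6 genes.
H2-Eb1 (chr17:34305770-34305818, plus strand): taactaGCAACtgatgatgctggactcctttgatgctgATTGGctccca
H2-Eb2 (chr17:34325537-34325585, plus strand): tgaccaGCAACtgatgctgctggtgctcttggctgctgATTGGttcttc
H2-Aa (chr17:34287861-34287910, minus strand): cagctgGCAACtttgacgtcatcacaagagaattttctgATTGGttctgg
H2-Oa (chr17:34092297-34092346, plus strand): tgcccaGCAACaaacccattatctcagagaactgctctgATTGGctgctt
H2-Ob (chr17:34238812-34238858, plus strand): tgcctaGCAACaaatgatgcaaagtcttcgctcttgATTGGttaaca
H2-DMb1 (chr17:34153091-34153140, plus strand): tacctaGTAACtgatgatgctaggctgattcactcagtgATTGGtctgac
The distance from the X letters to the Y letters was 33 bases in H2-Aa, H2-DMb1 and H2-Oa, 32 in H2-Eb1 and H2-Eb2, and 30 in H2-Ob. Class I heavy chain genes with the other pair, TGATGAC then ATTGG, are shown by 4 of the 5 that hold it, the fifth being H2-Q7.
H2-D1 (chr17:35262984-35263028, plus strand): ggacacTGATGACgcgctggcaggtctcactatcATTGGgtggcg
H2-Q4 (chr17:35379504-35379548, plus strand): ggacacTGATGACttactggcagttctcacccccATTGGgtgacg
H2-Q6 (chr17:35424738-35424781, plus strand): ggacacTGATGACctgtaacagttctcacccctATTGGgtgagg
H2-M3 (chr17:37270179-37270223, plus strand): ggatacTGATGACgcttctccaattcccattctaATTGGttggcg
In these the 2 motifs were 27 or 28 bases apart.

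**Figure D1:**
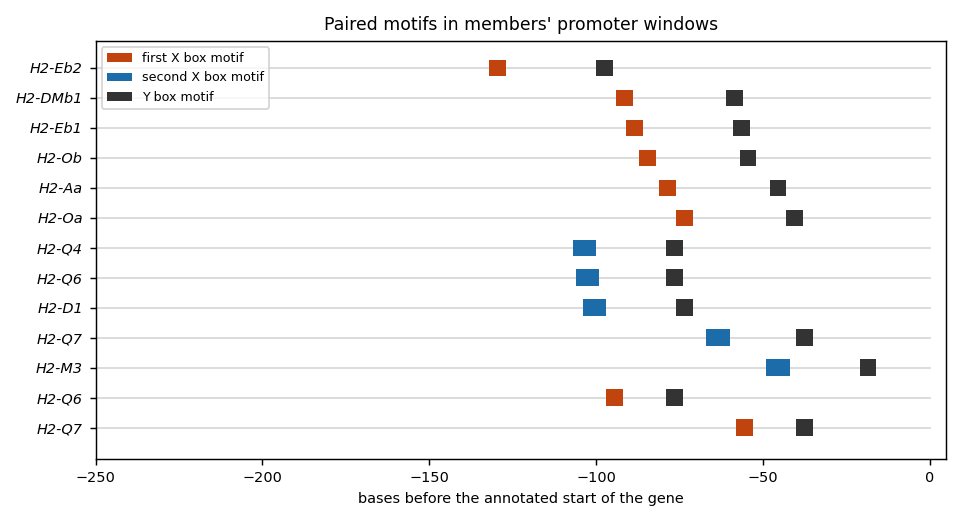
Position of the paired motifs before the annotated start of each gene, in bases (x axis), for members with a match on the gene's own strand (y axis), with orange and blue bars for the GNAAC and TGATGAC motifs and black bars for ATTGG. The class II pairs sit with the X motif 76 to 132 bases before the start, and H2-Q6 and H2-Q7 appear once for each pair.

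ATTGG was present in 23 of the 30 member windows (76.7%), against 37.5% of 27018 genes. GNAAC then ATTGG was present in 6 of 9 class II windows (66.7%) and in 3 of 13 class I heavy chain windows (23.1%), against 4.13% of all windows. One of those 3, H2-M2, matched only on the opposite strand. TGATGAC then ATTGG was present in 5 of 13 class I heavy chain windows (38.5%) and in 0 of 9 class II windows, against 0.148% of all windows. In H2-Q6 and H2-Q7 the same ATTGG completes both pairs. Of the class I processing genes, 0 of 7 windows held either pair. A match describes letters in a window and says nothing of binding. The letters were chosen after the members' windows had been read, so their excess over all windows was partly set by that choice. It is no test of enrichment.

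Before the comparison, the libraries were checked. Total counts were 19981428 to 46796908, so that 3 counts equal 0.0629 to 0.148 CPM (read counts scaled to library size with TMM factors), and mitochondrial genes took 1.75% to 2.27%. Zpbp2, the deleted gene, was close to silent in all lungs (at most 2 counts in a WT library and 0 in each KO library), too few reads to check the labels. Lung markers were present: Sftpc, the surfactant protein C gene, was at 9327 to 13765 CPM and Pecam1, an endothelial gene, at 774 to 912 CPM. Xist was at 715 to 994 CPM and no Y-linked gene listed exceeded 0.189 CPM in any library. The first principal component (43.5% of the variance) separated KO from WT, and KO5 stood apart at 43.1, against 12.5 for KO4 and 22 for KO6. KO5 also carried far more B cell RNA than the other libraries, as given below. The class II values are given with and without it, and the class I calls are counted with and without it.

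In KO lungs, 21 of the 42 genes rose and none fell (edgeR quasi-likelihood test, adjusted p at most 0.05 over all 17037 genes tested). The risers were 9 of 19 class I heavy chain genes, 5 of 10 class I processing genes and 7 of 12 class II genes. Over all genes, 6.39% were called in either direction and 3.72% were called higher. The median log2 fold change was 0.50 over the 42 genes, 0.40 over class I heavy chains, 0.31 over class I processing and 0.59 over class II, against 0.00 over all genes tested. Of the risers, 3 also had a log2 fold change of at least 1.5 (H2-M2, H2-Eb2 and H2-Oa), against 0.640% of all genes, and the others had log2 fold changes of 0.31 to 0.74. For 34 members every KO mouse was above every WT mouse, against 17.0% of all genes; for 2 members (H2-M5 and H2-Ke6) every KO mouse was below, against 15.6% of all genes, and 6 overlapped (H2-Q1, H2-K2, H2-Q2, Tapbpl, Erap1 and Ciita), against 67.4%. The fold change was positive for 39 members and negative for 3 (H2-M5, H2-Q1 and H2-Ke6).

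**Figure D2:**
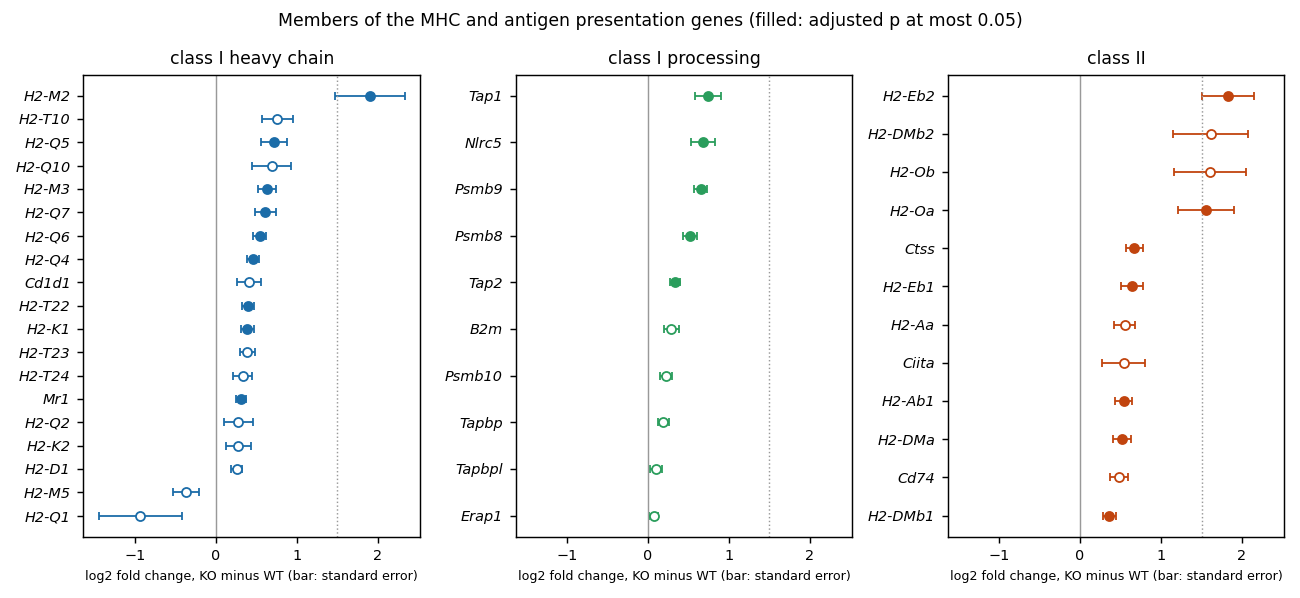
Log2 fold change, KO minus WT, with its standard error (x axis), for each member by group (rows), filled where the adjusted p is at most 0.05; the dotted line marks 1.5. Filled points are 9 of 19 class I heavy chain, 5 of 10 class I processing and 7 of 12 class II genes, all to the right of 0.

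The number of calls depended on single libraries. Without WT5, WT6 or KO6 none of the 42 members was called (30 had an unadjusted p under 0.05 in each case), while 1, 63 and 117 genes of the whole table were called. In the same order, 3168 of 17545, 3524 of 17136 and 3729 of 17421 genes tested had an unadjusted p under 0.05. Without WT4, 9 members were called, without KO5 14, and without KO4 21, of which 9, 12 and 18 were among the 21 members. The calls over all genes were then 254 (1.48%), 933 (5.48%) and 1278 (7.3%). In each of these 6 fits 39 of 42 fold changes stayed positive, and the median of the 42 lay between 0.42 and 0.56. By group, 5 class I heavy chain, 2 class I processing and 7 class II genes were called without KO5, against 9, 5 and 7 with all mice. H2-K1, H2-T22, H2-Q5, H2-Q7, Tap1 and Tap2 were among the calls lost without KO5 (edgeR adjusted p 0.0528 to 0.0761).

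The classical class I heavy chains present cytosolic peptides, and H2-K1 and H2-D1 encode the 2 that C57BL/6 mice use. H2-K1 (chr17:33996017-34000347) was at 1128, 985 and 1104 CPM in WT4, WT5 and WT6 and at 1332, 1382 and 1492 CPM in KO4, KO5 and KO6. Every KO mouse was above every WT mouse, and the log2 fold change of 0.39 (SE 0.0783) passed the test (adjusted p = 0.0374). H2-D1 was at 1193, 1108 and 1210 CPM in WT and 1358, 1375 and 1475 CPM in KO. Here too the groups did not overlap, but the log2 difference of 0.26 (SE 0.0668) missed the threshold, at an adjusted p of 0.0635.

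The Q genes encode class Ib heavy chains that resemble the classical ones. H2-Q4 was at 263, 228 and 236 CPM in WT and at 313, 327 and 360 CPM in KO (log2 fold change 0.46, SE 0.0784, adjusted p = 0.0255 by edgeR). For H2-Q6 the WT levels were 215, 181 and 199 CPM and the KO levels 263, 305 and 299 CPM (0.54, SE 0.0857, adjusted p = 0.0227). H2-Q7 lay at 176, 145 and 156 CPM in WT against 195, 267 and 263 CPM in KO (0.61, SE 0.132, adjusted p = 0.0440). All 3 rose, with H2-Q7 lower in KO4 than in the other KO mice. The polymorphic pseudogene H2-Q5 moved from 41.6, 32.1 and 32.1 CPM to 46.2, 67.3 and 59.9 CPM (0.72, SE 0.158, adjusted p = 0.0445). These Q genes share exact 75-base stretches with other genes: 21.2% of the 75-mers of H2-Q5, 21.1% of H2-Q6, 20.7% of H2-Q4 and 17.0% of H2-Q7. For H2-Q5, H2-Q6 and H2-Q7 the main sharing genes were mostly of the same family, so that reads from these stretches may not be assignable to a single gene. For H2-Q4 they were Gm11131, Tyms and Vmn1r-ps144, ahead of H2-Q6.

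H2-T22, H2-M3, Mr1 and H2-M2 rose as well. H2-T22, whose product is bound by gamma delta T cells, was at 94.2, 80.7 and 89.9 CPM in WT and 108, 120 and 121 CPM in KO (0.40, SE 0.0749, adjusted p = 0.0313), with 40% of its 75-mers found in other genes, H2-T10 among them. H2-M3, which presents N-formylated peptides, was at 24.4, 19.5 and 23.6 CPM in WT and 31.1, 37 and 36.4 CPM in KO (0.63, SE 0.108, adjusted p = 0.0256). Mr1, which shows vitamin B metabolites to MAIT cells, was at 42.7, 40.8 and 44.1 CPM in WT and 56.6, 49.8 and 51.5 CPM in KO (0.31, SE 0.0649, adjusted p = 0.0422). None of the 3 overlapped between groups. H2-M2 (chr17:37480851-37483552) had the largest fold of the members and low levels: 0.886, 2.64 and 3.30 CPM in WT and 11, 6.48 and 8.30 CPM in KO. Its log2 fold change was 1.90 (SE 0.433, adjusted p = 0.0485), and it shares no 75-mer with another gene.

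The other class I heavy chain genes did not pass. H2-T23, whose product Qa-1 is read by NKG2A receptors, had an adjusted p of 0.0555, and H2-T10, a polymorphic pseudogene with 36.0% shared 75-mers, one of 0.0594, with log2 differences of 0.39 and 0.76. H2-T24, H2-Q10, Cd1d1, H2-M5, H2-Q1, H2-K2 and H2-Q2 had adjusted p-values of 0.128 to 0.365 and log2 differences of -0.93 to 0.69. The -0.93 of H2-Q1 came with WT4 at 3.5 CPM and every other library at 0.88 to 1.14 CPM.

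The class I processing genes make and move the peptides. The immunoproteasome subunits Psmb8 and Psmb9 trim proteins to fitting peptides, and the TAP transporter, Tap1 with Tap2, carries them into the endoplasmic reticulum. Psmb9 was at 44.0, 36.3 and 38.7 CPM in WT and 59.2, 63.6 and 63.8 CPM in KO (log2 fold change 0.65, SE 0.0786, adjusted p = 0.0126 by edgeR, the lowest of the members). Psmb8 was at 83.0, 67.8 and 76.5 CPM in WT and 101, 112 and 114 CPM in KO (0.52, SE 0.0843, adjusted p = 0.0235). For both the KO mice were all higher than the WT mice. Tap1 was at 86.2, 59.3 and 62.8 CPM in WT and 98.3, 124 and 125 CPM in KO (0.74, SE 0.157, adjusted p = 0.0423), with WT4 above the other WT mice and KO4 below the other KO mice. Tap2 was at 112, 100 and 99.9 CPM in WT and 126, 135 and 132 CPM in KO (0.33, SE 0.0624, adjusted p = 0.0317). Psmb9 and Tap1 start 211 bp apart on opposite strands and overlap, and the strand setting of the counting is not given in the sources used here.

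NLRC5 is the coactivator of class I promoters. Nlrc5 (chr8:94434356-94527272) was at 53.1, 38.4 and 40.6 CPM in WT and 58.8, 78.7 and 73.9 CPM in KO. It rose by a log2 fold change of 0.68 (SE 0.150, adjusted p = 0.0447). The light chain gene B2m was at 1263, 1072 and 1327 CPM in WT and 1465, 1409 and 1590 CPM in KO, with no overlap of the groups. Its log2 difference of 0.29 (SE 0.0954) missed the threshold (adjusted p = 0.120). The third immunoproteasome subunit Psmb10, the loading factors Tapbp (tapasin) and Tapbpl, and the trimming peptidase Erap1 had log2 differences of 0.22, 0.19, 0.10 and 0.07, with adjusted p-values of 0.111, 0.126, 0.415 and 0.516.

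The class II chains bind peptides, and Cd74, the invariant chain, guards them until the lysosome. H2-Ab1 was at 345, 292 and 332 CPM in WT and 420, 537 and 456 CPM in KO (log2 fold change 0.54, SE 0.106, adjusted p = 0.0343 by edgeR). H2-Eb1 (chr17:34305867-34316674) was at 319, 262 and 317 CPM in WT and 409, 561 and 428 CPM in KO (0.64, SE 0.136, adjusted p = 0.0423). H2-Aa, the partner of H2-Ab1, was at 480, 369 and 467 CPM in WT and 587, 741 and 594 CPM in KO (0.55, SE 0.130, adjusted p = 0.0537). Cd74 was at 1301, 1085 and 1239 CPM in WT and 1494, 1918 and 1644 CPM in KO (0.48, SE 0.112, adjusted p = 0.0510). The groups did not overlap for any of the 4, and KO5 was the highest for each, while H2-Aa and Cd74 narrowly missed the threshold. Without KO5 the log2 differences were 0.43 for H2-Ab1 (adjusted p = 0.0398), 0.48 for H2-Eb1 (0.0405), 0.43 for H2-Aa (0.0835) and 0.37 for Cd74 (0.0765).

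H2-Eb2 (chr17:34325665-34341412) encodes a second beta chain at a low level. It was at 2.70, 3.11 and 3.95 CPM in WT and 8.11, 17.4 and 8.99 CPM in KO. Every KO mouse was above every WT mouse, KO5 most, and the log2 fold change of 1.83 (SE 0.321) passed both thresholds (adjusted p = 0.0268). Without KO5 the log2 fold change was 1.38 (adjusted p = 0.014), and without KO6 it was 1.98 with an adjusted p of 0.0633.

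Peptide exchange on class II is catalysed by H2-DM and held back by H2-O, which is made mainly in B cells. The alpha chain gene H2-DMa was at 51.0, 38.0 and 44.8 CPM in WT and 60.3, 69.6 and 62.4 CPM in KO (0.52, SE 0.110, adjusted p = 0.0414). The beta chain gene H2-DMb1 was at 59.1, 48.5 and 50.4 CPM in WT and 65.8, 68.9 and 68.1 CPM in KO (0.36, SE 0.0786, adjusted p = 0.0440). H2-Oa was at 3.95, 4.17 and 3.78 CPM in WT and 8.21, 18.5 and 7.70 CPM in KO (1.55, SE 0.345, adjusted p = 0.0459). H2-DMa and H2-DMb1 were at similar levels in the 3 KO mice, while H2-Oa was highest in KO5, and without KO5 its log2 fold change was 1 (adjusted p = 0.0129). Without KO5 the calls of H2-DMa (0.45, adjusted p = 0.0695) and H2-DMb1 (0.34, adjusted p = 0.0764) were lost. H2-Ob and H2-DMb2 had larger log2 differences, 1.60 and 1.61, with adjusted p-values of 0.0783 and 0.0875, and with KO5 at 114 CPM for H2-Ob, against 33.5 and 40.9 CPM in KO4 and KO6. Without KO5 these differences were 0.83 (adjusted p = 0.0147) and 0.82 (adjusted p = 0.0496). Ctss, the cathepsin that cuts the invariant chain, was at 158, 117 and 135 CPM in WT and 207, 223 and 222 CPM in KO (0.67, SE 0.105, adjusted p = 0.0216), with the 3 KO mice close together and a log2 fold change of 0.65 without KO5 (adjusted p = 0.0309).

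CIITA is the master coactivator of class II promoters. Ciita was at 75.2, 39.7 and 43.3 CPM in WT and 60.8, 95.2 and 72.9 CPM in KO. The groups overlapped through WT4, and the log2 difference of 0.54 (SE 0.264) did not pass (adjusted p = 0.256), and was 0.34 without KO5.

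**Figure D3:**
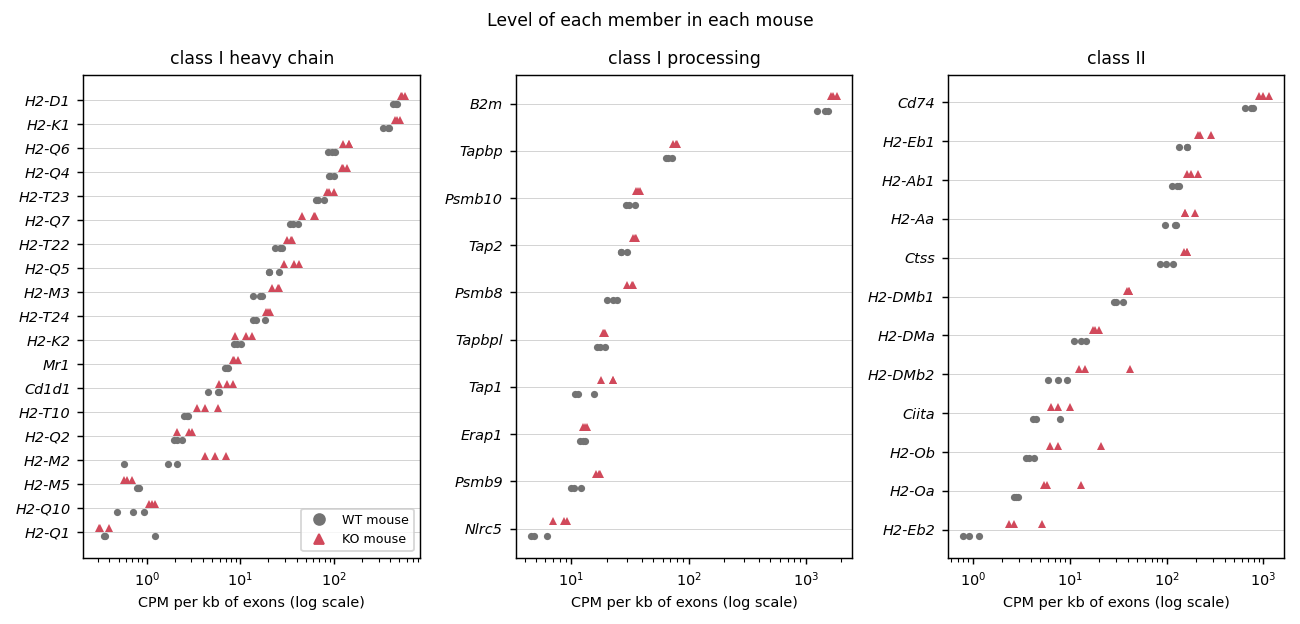
Level of each member in each mouse in CPM per kb of exons on a log axis (x axis), for the 3 groups of members (panels), with grey circles for WT and red triangles for KO mice. The level runs from the light chain B2m, at a mean of 1420 in WT and 1731 in KO, down to H2-Q1.

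Per length, B2m was the most abundant member (a mean of 1420 CPM per kb in WT and 1731 in KO), followed by Cd74 (720 and 1004), H2-D1 (454 and 544) and H2-K1 (365 and 477). The class II chains H2-Eb1, H2-Ab1 and H2-Aa were at 154, 126 and 116 CPM per kb in WT and 240, 183 and 169 in KO. H2-Eb2, at 0.959 and 3.39 CPM per kb, was far below H2-Eb1.

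Summed over members, class I heavy chains made up 3501, 3090 and 3368 CPM in WT4, WT5 and WT6 and 4059, 4314 and 4563 CPM in KO4, KO5 and KO6. Class I processing genes made up 2105, 1781 and 2074 CPM in WT and 2404, 2390 and 2589 CPM in KO. Class II genes made up 2830, 2288 and 2673 CPM in WT and 3376, 4437 and 3630 CPM in KO. The KO mean was 1.3 times the WT mean for class I heavy chains, 1.24 times for processing and 1.47 times for class II, and without KO5 it was 1.3, 1.26 and 1.35 times; the difference between classes was not tested. KO5 was highest for class II but not for class I, where KO6 was highest in both groups.

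**Figure D4:**
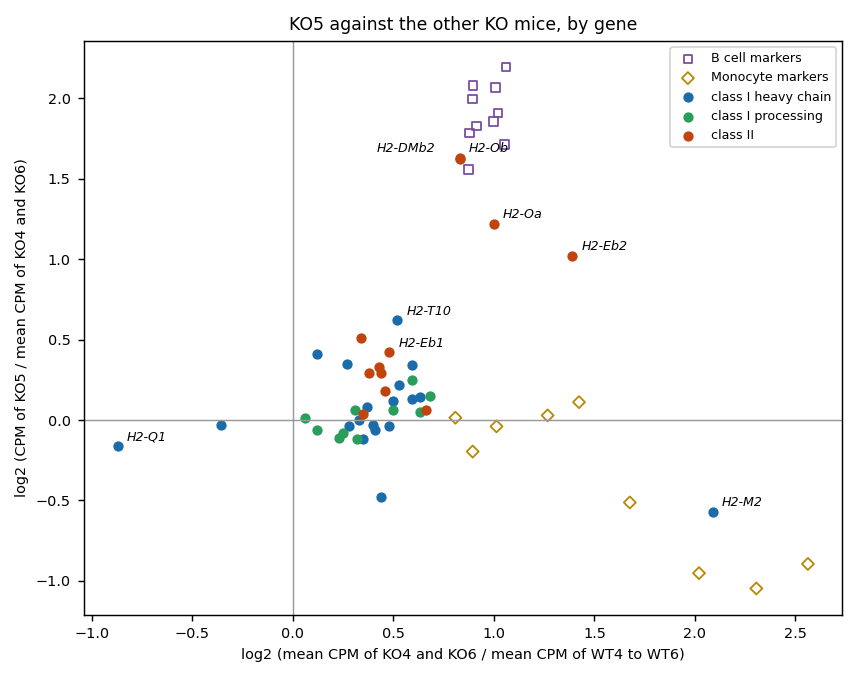
Log2 ratio of KO5 to the mean of KO4 and KO6 (y axis) against the log2 ratio of that mean to the mean of the WT mice (x axis), for members (filled) and for B cell and monocyte markers (open symbols). H2-Ob, H2-DMb2, H2-Oa and H2-Eb2 lie highest among members and nearest the B cell markers.

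Some class II genes were much higher in KO5 than in the other KO mice. The ratio of KO5 to the mean of KO4 and KO6 was 3.11 for H2-DMb2, 3.07 for H2-Ob, 2.33 for H2-Oa and 2.03 for H2-Eb2, and 1.34 for H2-Eb1. For H2-K1 it was 0.979, for Psmb9 1.03, for Ctss 1.04, and for H2-M2 0.672. The sum of 10 B cell markers was 146, 139 and 154 CPM in WT and 259, 1096 and 312 CPM in KO, a ratio of 3.84 for KO5. With all mice none of the 10 was called by edgeR's quasi-likelihood test (adjusted p 0.069 to 0.113), while 10 had an unadjusted p under 0.05, DESeq2 called 8 and the exact test 10, all higher. Over all 17037 genes tested with all mice, 4347 had an unadjusted p under 0.05. Without KO5, 8 of the 10 were called higher and the summed KO level was 1.95 times that of WT, against 3.8 times with KO5; 8 were also called without KO4, and 0 without KO6 or any 1 WT mouse. None was at 0 in any library. Monocyte markers rose for 9 of 9 genes, with a median log2 fold change of 1.46 and sums of 160, 123 and 142 CPM in WT and 315, 311 and 420 CPM in KO. Of these, 8 were called without KO5, 6 without KO6 or WT4, and 0 without WT5 or WT6. Of the interstitial macrophage markers 3 of 6 rose (C1qa, C1qb and C1qc), with sums of 99.1 to 110 CPM in WT and 136 to 194 CPM in KO; 3 were called without KO5, and 0 without KO6 or any 1 WT mouse. Of the alveolar macrophage markers 1 of 6 rose (Marco), with sums of 434 to 673 CPM in WT and 540 to 681 CPM in KO; it was called without KO5 and lost without WT5. Of 7 conventional dendritic cell markers 2 rose (Flt3 and Xcr1) and 1 fell (Zbtb46), with sums of 91.6 to 101 CPM in WT and 82.4 to 104 CPM in KO. The sum was mostly Zbtb46, at a mean of 60.9 of 94.9 CPM in WT and 48 of 93.1 CPM in KO, so it says little of the other markers. Both rises were lost without KO5, without KO6 and without any 1 WT mouse, and the fall without KO6 or any 1 WT mouse. No T cell marker of 8 was called by edgeR (6 had an unadjusted p under 0.05 and DESeq2 called 5), although their sum was 49.1, 126 and 69.7 CPM in KO against 43.8 to 49.2 CPM in WT; without KO5 the KO sum was 1.28 times that of WT, against 1.75 times with it, and 0 were called, while 5 were called without KO4. None of 8 type 2 alveolar markers was called by edgeR (2 had an unadjusted p under 0.05 and DESeq2 called 2, with sums of 21895 to 24366 CPM in WT and 17608 to 22475 CPM in KO), and of 6 endothelial markers Cldn5 fell (sums of 2890 to 3073 and 2599 to 3088 CPM), a call lost without any 1 mouse. Of the lymphoid stroma markers 3 were tested and Glycam1 was called higher, at 0, 2 and 5 counts in WT and 9, 172 and 53 counts in KO. It passed the expression filter only through the KO libraries, so the call gives no support for a rise. Without KO5 only 2 of the list were tested and 0 called, and 0 were called without KO6 or any 1 WT mouse. The log2 differences of Cxcl13 and Chst4 were 2.10 and -0.57 (edgeR adjusted p = 0.0706 and 0.232). Ccl19 and Ccl21a were at 0, and of the thymocyte markers none was tested and Rag2 was at 0. The part of these cell types in the rise of MHC genes was not tested.

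**Figure D5:**
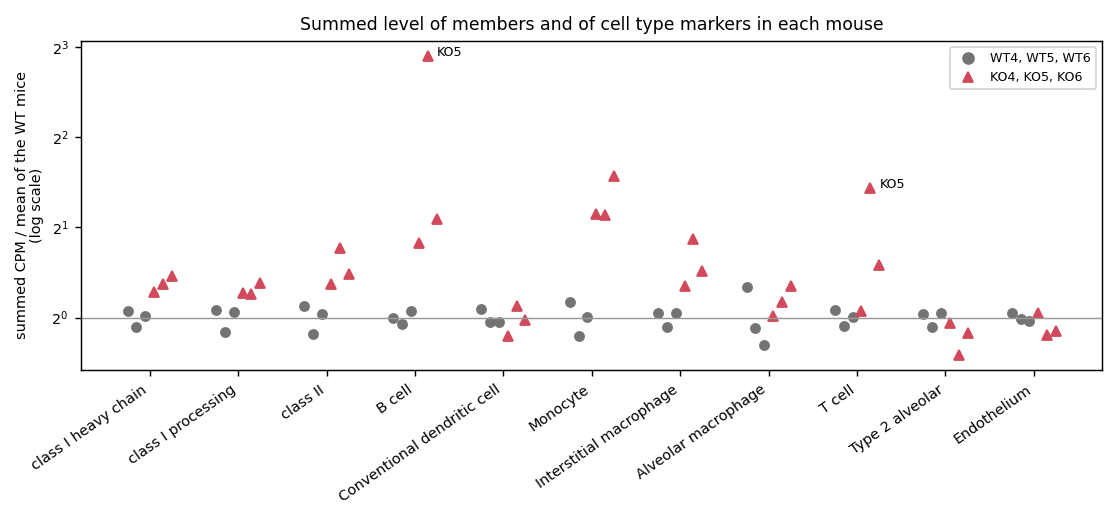
Summed CPM of each group of members and each marker list, divided by the mean of the WT mice, on a log axis (y axis), for 6 mice (points). KO5 stands above the other KO mice for B cell, T cell, interstitial macrophage and conventional dendritic cell markers and for class II, and not for class I processing.

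Other genes of the pathway were read from the same fit. Of 12 genes for peptide loading and the proteasome, Psme1, a subunit of the proteasome activator that interferon induces, rose (log2 fold change 0.22, adjusted p = 0.0485) and the chaperone Hspa5 fell by 0.60 (adjusted p = 0.0212). The rise of Psme1 was called in 0 of the 6 fits that leave out a mouse, and was lost with DESeq2's size factors, the exact test and no filter; the fall of Hspa5 was called in 3 of the 6. DESeq2 called 5 of the 12, with Calr, Canx, Pdia3 and Hspa5 lower and Psme1 higher, and 8 of the 12 fold changes were negative. Neither of 2 other B2m partners tested, Fcgrt and Hfe, was called by edgeR (1 had an unadjusted p under 0.05, against 4347 of all 17037 genes, and DESeq2 called 1). Of 14 lysosomal proteases and reductases 4 rose, among them Ctse (1.90, adjusted p = 0.026) and Ctsa (0.35, adjusted p = 0.0343), and DESeq2 called 6, all higher. With a mouse left out, edgeR gave 0 to 5 calls, 1 without KO5 and 0 without KO6 or any 1 WT mouse. Of 11 factors of the SXY module and class II turnover, 2 rose: Spi1, the myeloid factor PU.1 (0.85, adjusted p = 0.0121), and Rfx5, the RFX subunit (0.51, adjusted p = 0.0265). The remaining RFX, NF-Y and CREB genes did not pass. DESeq2 called 4 of the 11, all higher, with March1 (log2 difference 1.27, edgeR adjusted p = 0.0581) and Irf8 (0.66, edgeR adjusted p = 0.0888) besides Spi1 and Rfx5. Leaving out a mouse gave 0 to 4 calls in this list, 3 without KO5, 1 without KO6 or WT4, and 0 without WT5 or WT6.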

How the data were processed

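RNA-seq of lungs from 3 WT and 3 KO mice at ZT10 was used as 1 table of whole read counts per gene, deposited by the authors without normalization. Per the submitters' processing notes, Trimmomatic 0.36, STAR 2.5.3a, Picard 2.9.0 and HTSeq 0.6.0 were used with GRCm38; the annotation release and the strand setting are not given in the sources used here. Counts were tested in R 4.3.3 with the quasi-likelihood test of edgeR 4.0.16 (TMM, filterByExpr with a minimum count of 10 and total of 15), with Benjamini-Hochberg adjustment over 17037 genes and no covariates; the code was tested on simulated data. DESeq2 1.42.0 was an alternative. CPM use TMM-scaled totals. SE is the log2 fold change divided by the root of the F statistic. Each library is 1 mouse, so the test sets the KO minus WT difference against the spread between mice, moderated across genes. Members and gene lists were chosen with earlier results of these data known. Every member could be named; values in each mouse are given for those called and for H2-K1, H2-D1, B2m, H2-Aa, H2-Ab1, H2-Eb1, Cd74, Ciita, Nlrc5, H2-Eb2 and H2-M2; other lists are given by counts and their members of lowest p. Shared 75-mers were counted over the GENCODE M21 transcripts. A further list of pathway genes is not reported here.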

Additional observations from a re-analysis of the deposited data

How the results depend on the processing

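Another size factor (DESeq2's) and a minimum of 10 counts in 3 libraries gave the same 21 members. DESeq2 called 28 members and 1913 of all genes (11.2%), the exact test of edgeR 28 (1468 of all genes, 8.62%) and no filter 27 (1401 of 28625 genes, 4.89%), with 11 of 12 class II genes under each of the last 2. With a log2 fold change of at least 1.5, 109 genes were called: 3 members, 1 class I heavy chain, 0 processing and 2 class II genes. Leaving out each mouse gave 1 to 1278 genes, 0 to 21 members, 0 to 8 class I heavy chain, 0 to 5 processing and 0 to 8 class II genes; 2 mice then remain in 1 group. No member changed sign in any setting. With the replicate number as a replicate block 66 genes were called and 0 members, 0 in each of the 3 groups, with 34 members at an unadjusted p under 0.05. Over all 17037 genes tested with the block, 3791 had an unadjusted p under 0.05. Same-numbered mice did not deviate together (correlations -0.0316, -0.154 and -0.021), so the numbers do not pair the mice. Members with low counts, such as H2-Q1 and H2-M2, are limited by depth.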

Other observations

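Costimulatory and coinhibitory genes, whose products antigen-presenting cells show beside MHC, were not among the members. Of 7 genes 2 rose in KO lungs by edgeR's quasi-likelihood test. Pdcd1lg2, the gene of the coinhibitory ligand PD-L2, went from 0.725, 0.623 and 0.873 CPM in WT to 1.91, 2.37 and 1.58 CPM in KO (log2 fold change 1.40, adjusted p = 0.0255). It had only 13 to 27 counts a WT library. Cd83, a marker of mature dendritic cells and B cells, went from 12.8, 12.6 and 16.2 CPM to 19.9, 33.6 and 28.4 CPM (0.98, adjusted p = 0.037). Cd86, a ligand of CD28, had a log2 difference of 0.94 and an adjusted p of 0.0502. DESeq2 called 5 of the 7, all higher. With a mouse left out, edgeR gave 0 to 3 calls in this list, 2 without KO5 and 0 without KO6 or any 1 WT mouse. The 2 without KO5 were Pdcd1lg2 and Cd86, and the call of Cd83 was lost. For Pdcd1lg2 and Cd83 every KO mouse was above every WT mouse.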
